A study of Mus musculus with 32 samples.

Results

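T cells were found among BMSC-OBs, the cells grown from mouse marrow under osteogenic conditions, and this small lymphocyte population is described here. A cell was counted as a T cell when it had UMIs (unique molecular identifiers, each standing for 1 captured transcript) from at least 2 of the 5 genes Cd3d, Cd3e, Cd3g, Trbc1 and Trbc2, at least 3 such UMIs in sum, and no UMI of Csf1r, the receptor for macrophage colony-stimulating factor. By this rule 818 of 90924 kept cells were T cells, or 0.900%. Kept cells had 400 to 6200 detected genes and at most 10% mitochondrial UMIs. The rule selected on measured values, so the levels of these 6 genes are given as a description. The 5 T-cell genes were left in the fits among T cells described further on, and no result is drawn from them there.

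The data are droplet single-cell RNA-seq counts from 16 pools of cells of Diversity Outbred mice, an outbred stock, with no treatment or genotype groups in the labels. Marrow stromal cells of 77 mice were grown for 3 days to confluence and for 10 days in a medium with ascorbic acid, β-glycerophosphate and dexamethasone, a synthetic glucocorticoid, and cells of 5 mice (4 in 3 of the pools) were then mixed. Each pool was sequenced in 2 runs that hold the same droplets, so 1 run was used and the other served as an alternative. The pool was the replicate, and cells were not assigned to single mice. A difference between pools, or between classes of cells in a pool, can therefore come from 1 animal. Total counts were between 53990642 and 100777353 UMIs per pool, and the median UMI count per kept cell was 2785 to 15166. Of 89835 kept barcode sequences, 1080 (1.20%) were found in more than 1 pool. The barcode of 20 T cells (2.44%) was also kept in another pool, and 0 barcodes were T cells in more than 1 pool. The reference population was all 13128 cells with a UMI of Ptprc, which encodes the leukocyte surface phosphatase CD45, and none of the 5 T-cell genes. It was made mainly of myeloid cells, with Lyz2 (lysozyme) UMIs in 93.6% and Csf1r UMIs in 64.2%.

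T cells recognise antigen with a receptor of 2 variable chains, most often alpha and beta, which signals through the CD3 chains. CD4 and CD8 are co-receptors that bind class II and class I major histocompatibility molecules and mark helper and cytotoxic cells. In bone, activated T cells are a known source of RANKL (gene Tnfsf11), which drives osteoclast formation, and of cytokines such as interferon gamma. ICOS and GITR (gene Tnfrsf18) are costimulatory receptors that rise on activated and regulatory T cells, and Nkg7 encodes a membrane protein of cytotoxic granules.

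The rule used both beta-chain constant genes, Trbc1 and Trbc2, which lie in tandem on mouse chromosome 6 and are close copies. Over 518 coding bases of GRCm38 (GENCODE M21) they differed at 23, an identity of 95.6%. The third exons are shown because they held 15 of these differences, the others being 1 in exon 1, 3 in exon 2 and 4 in exon 4. Exon 3 of Trbc1 lies at chr6:41539229-41539335 and that of Trbc2 at chr6:41547772-41547878, both on the plus strand. Each exon is 107 bases long, and capitals mark the bases that differ.
Trbc1: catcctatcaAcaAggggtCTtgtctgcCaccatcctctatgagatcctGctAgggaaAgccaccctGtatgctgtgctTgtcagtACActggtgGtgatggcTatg
Trbc2: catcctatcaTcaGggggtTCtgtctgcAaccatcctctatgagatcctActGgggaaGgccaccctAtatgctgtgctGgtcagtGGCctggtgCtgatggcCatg
Counts of 3′ libraries draw most reads from near the transcript's end. The stretch after the coding part is 219 bases long in Trbc1 and 174 in Trbc2, and 0 of 195 words of 25 bases in the first occurred in the second. How reads within the shared coding part were counted was not examined, and Trbc1 and Trbc2 values are uncertain to that extent.

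T cells were very unevenly spread over the pools. Pool 8 held 274 T cells, 5.94% of its kept cells (exact 95% interval 5.27 to 6.66). Pool 14 held 214 (4.14%) and pool 6 held 180 (3.00%), so that 668 of 818 T cells (81.7%) came from 3 pools. Pool 5 followed with 45 (0.941%) and pool 18 with 44 (0.579%). The other pools held at most 12 each, and pool 13 had 0 of 7195 kept cells, which allows a share of up to 0.0417% at a floor of 3 counts (exact 95% upper limit 0.0513%). Over the 16 pools the mean was 0.991% ± 1.77 (SD) and the median 0.133%, and intervals cover counting error only.

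**Figure D1:**
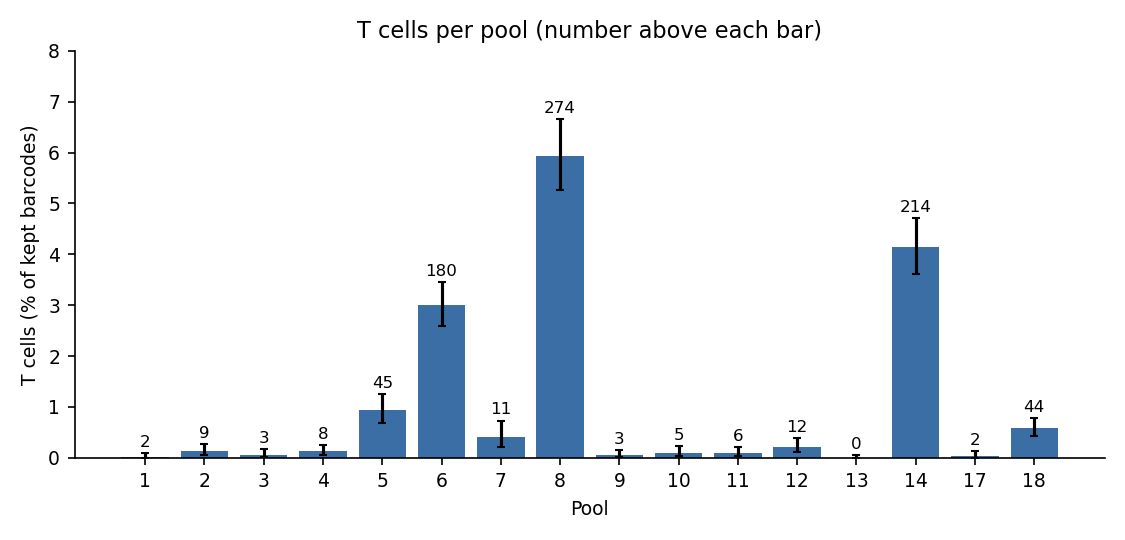
T cells as a percentage of kept barcodes (y axis) in each of the 16 pools (x axis), with exact 95% binomial intervals as error bars and the number of T cells above each bar. Pools 8, 14 and 6 hold 274, 214 and 180 T cells, and no other pool holds more than 45.

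A relation between the abundance of T cells and that of other leukocytes was not shown at 16 pools. The reference population made up 5.11 to 26.6% of kept cells in the 16 pools, and over these pools its share and the T-cell share were related with r = 0.313 (Pearson, permutation p = 0.243, adjusted p = 0.485 over 4 relations). The rank relation was rho = 0.515 (Spearman, adjusted p = 0.176, permutation p = 0.0439 before adjustment). Without pools 2 and 7, the farthest from the median share, r was 0.576. Against the median UMI count of the pool r was 0.121 (permutation p = 0.675, adjusted p = 0.675) and rho 0.144 (permutation p = 0.593, adjusted p = 0.675), and r without pools 13 and 1 was -0.0602. Neither relation passed the correction. Taking T cells as a share of all leukocytes (T cells and the reference population), pool 14 came first with 23.9%, followed by pool 8 with 21.5% and pool 6 with 13.7%. With this denominator r was 0.218 and rho 0.241 against the reference share (adjusted permutation p = 0.655 for both), and r was 0.154 and rho 0.121 against the UMI count (adjusted permutation p = 0.655 for both), with r of 0.478 and -0.0406 after leaving out the same pools.

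Receptor genes that the rule did not use were found in the same cells. Trac, the alpha-chain constant gene, had a UMI in 66.4% of T cells, against 0.320% of the reference population and 0.650% of 43533 collagen-high stromal cells, which should lack it. Median depths were 4090.5, 6299.5 and 16615 UMIs in these 3 classes, so the T cells were the shallowest. Trdc, the delta-chain constant gene, had a UMI in 2.08% of T cells and Cd247, the CD3 zeta chain, in 29.7%. Ptprc was detected in 77.4% of T cells. Of the genes in the rule, Trbc2 was detected in 92.1%, Cd3g in 87.7%, Cd3d in 82.6%, Cd3e in 76.8% and Trbc1 in 55.5%. UMIs of both beta constant genes were present in 418 T cells, Trbc2 alone in 335, Trbc1 alone in 36 and neither in 29. Among 336 T cells with at least 10 beta constant UMIs, 197 had less than 20% from Trbc1, 10 had over 80% and 129 lay between.

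Most T cells lay well inside the rule. The median was 17 UMIs of the 5 genes, 589 T cells had 10 or more, and 56 had just 3. Among those 56, Trac was detected in 14.3%, Icos in 23.2% and Tnfrsf18 in 28.6%. Just outside, 69 cells had 2 UMIs from 2 of the genes, with Trac in 15.9%, Icos in 20.3% and Tnfrsf18 in 27.5%. A further 116 cells had at least 3 UMIs of a single gene and a median of 17644.5 UMIs in all, and 31 cells met the T-cell criteria with a Csf1r UMI. The criteria were also met by 107 barcodes that were not kept, 101 of them with over 10% mitochondrial UMIs. Of the 43533 stromal cells 9 (0.0207%) met them. Stromal cells had no Ptprc UMI by definition, so droplets shared with a T cell that had Ptprc UMIs are not in this count.

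Cells of other types could share droplets with T cells. Col1a1, the main bone collagen gene, had a UMI in 95.8% of T cells, close to the 96.4% of the reference population, with a median of 4 UMIs of Col1a2 and Col3a1 in either class. At least 20 such UMIs were found in 53 T cells (6.48%), and 11 T cells had at least 2 UMIs each of Xist and of Y-linked genes, which come from mice of different sex. Mean Col1a1 in the 5 pools with at least 20 T cells was 6319 CPM ± 3133 (SD) in T cells and 26455.5 CPM ± 4651 in stromal cells, CPM being counts per 1e+06 UMIs of the class. All 10 stromal markers had UMIs in T cells, with a summed level between 10072.5 and 32872 CPM. Their part in the results was not tested beyond leaving out the 53 cells, and the values without them stand beside the counts below.

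Most markers of other leukocytes had UMIs in T cells, but few of them in many T cells. Those found in at least 10% of T cells were 1 of 10 macrophage, 2 of 10 granulocyte, 2 of 10 B-cell, 1 of 9 basophil and mast and 1 of 10 NK markers. Of the 10 macrophage markers, 9 had UMIs at a summed level of 70.9 to 264 CPM, with Csf1r at 0 by the rule. Among the 10 B-cell markers Ms4a1 and Pax5 were at 0, while the sum ranged from 7.60 to 4777 CPM, the highest value being that of pool 6, where Igkc, the kappa light chain, was at 4457 CPM in T cells and 11169 CPM in the reference population. The granulocyte sum ranged from 22.8 to 1679 CPM and was highest in pool 14, with S100a8, a neutrophil calcium-binding protein, at 649 CPM. Sums were 38.0 to 197 CPM for basophil and mast markers, 0.504 to 31.3 CPM for dendritic markers with Siglech, Klk1 and Cd209a at 0, 7.60 to 47.8 CPM for endothelial markers and 0 to 1.502 CPM for erythroid markers. The NK list gave 30.4 to 680 CPM with 0 of 10 genes at 0, and pool 8 was the highest.

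NK receptor genes marked a small set of cells that met the T-cell criteria. Ncr1 or Klrb1c, which encode NKp46 and NK1.1, had a UMI in 30 T cells (3.67%), 17 of them in pool 8 and 8 in pool 6. The rule cannot tell NK or NKT cells from T cells here, so these 30 are T cells by the rule only, and counts without them stand beside the results they touch. Cd4 was detected in 0 of these 30 and in 39.3% of the other 788. Cd3e was detected in 26.7% against 78.7%, Cd3d in 53.3% against 83.8% and Trac in 33.3% against 67.6%. The beta-chain genes were not lower, with Trbc1 in 93.3% against 54.1% and Trbc2 in 93.3% against 92.0%. Cd3d, Cd3e, Trbc1 and Trbc2 belong to the rule, so their shares are partly set by it. A cell with few CD3 UMIs can meet the rule through the beta-chain genes. Gzma, a granule protease, was detected in 73.3% against 8.38%. The median depth was 10757.5 UMIs against 3976.5, and these shares were not tested.

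Tnfrsf18 was the subset gene found in most T cells. It had a UMI in 86.7% of T cells in pool 5, 69.4% in pool 6, 85.4% in pool 8, 77.6% in pool 14 and 47.7% in pool 18, with a mean of 73.4% ± 15.9 (SD, n = 5 pools). Its level was between 315 and 420 CPM in the 5 pools. Over the cells of all pools, the reference population had a UMI in 1.17% and stromal cells in 0.301%. The reference mean in the same 5 pools was 2.04%. The share that free RNA adds was not estimated. Icos was detected in 68.9, 61.1, 47.4, 68.2 and 54.5% of T cells in pools 5, 6, 8, 14 and 18, a mean of 60.0% ± 9.15. It was lowest in pool 8. Icos had a UMI in 0.594% of the reference population and 0.101% of stromal cells over all pools. Its reference mean in the same 5 pools was 0.947%.

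Nkg7 had the widest spread between pools of the 5 subset genes in percentage points. It was detected in 69.0% of the T cells of pool 8, in 44.4% in pool 5, 33.3% in pool 6, 31.8% in pool 18 and 24.8% in pool 14, a mean of 40.7% ± 17.3. Over all pools the reference population had a UMI in 1.93% and stromal cells in 0.145%, and the reference mean in these 5 pools was 2.31%. Cd4 was detected in 57.8, 36.1, 39.8, 42.1 and 22.7% of T cells in pools 5, 6, 8, 14 and 18 (mean 39.7% ± 12.6), and in 0.190% of the reference population. Cd8a was detected in 4.44, 11.7, 7.30, 8.41 and 22.7% in the same order (mean 10.9% ± 7.09), and in 0.0152%. Pool 18 was thus the lowest for Cd4 and the highest for Cd8a. Foxp3, the regulatory T-cell factor, had a UMI in 1 T cell of 818.

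Detection depends on depth, and T cells were shallow. With each cell thinned to 1000 UMIs, which left out 20 T cells, Tnfrsf18 was detected in 33.0% ± 8.32 of T cells (SD, n = 5 pools), Icos in 21.9% ± 7.17, Nkg7 in 20.3% ± 10.5, Cd4 in 11.7% ± 4.25 and Cd8a in 3.33% ± 1.15. The Cd8a share was 5.50 to 7.57% under 4 alternatives in the choice of cells or run, all above this value. Thinning was a single random draw, which changes with the cells given, and the part of the draw in this shift was not tested. Pool 8 was the highest for Nkg7 (36.7%) and the lowest for Icos (10.7%) after thinning too. The thinned shares in the reference population were at most 0.453% over all its cells, the value for Nkg7. The absence of a UMI in a cell is therefore no sign that the gene was off.

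**Figure D2:**
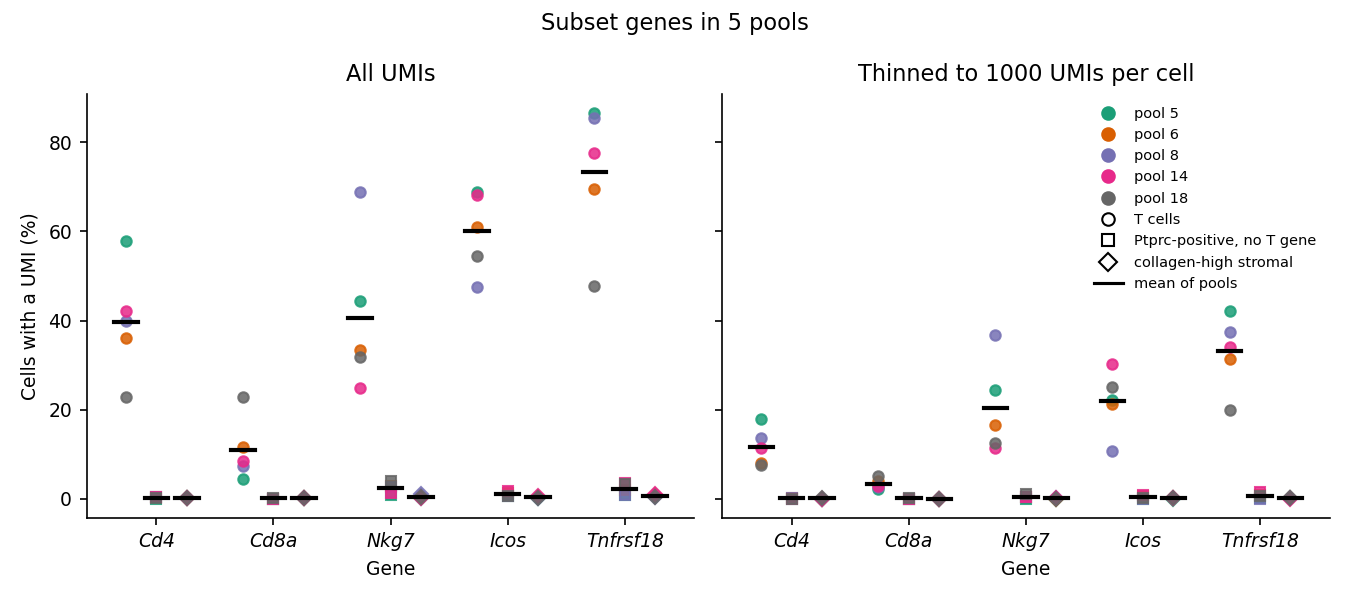
Percentage of cells with a UMI of Cd4, Cd8a, Nkg7, Icos and Tnfrsf18 (x axis) in T cells (circles), the Ptprc-positive reference population (squares) and collagen-high stromal cells (diamonds), with all UMIs on the left and 1000 UMIs per cell on the right, 1 point per pool for 5 pools and a bar at their mean. T cells lie above both other classes for each gene, and the Nkg7 share of pool 8 (69.0% of T cells with all UMIs) stands above the other pools.

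Cd4 and Cd8a were never detected in the same T cell. A Cd4 UMI was found in 310 T cells, called the Cd4 side, a Cd8a UMI in 78, called the Cd8a side, and neither in 430, while 0 of 818 had both. A count of 0 allows up to 0.367% of T cells with UMIs of both genes, and sets no limit on cells that express both. Cd8b1, the beta chain of the CD8 co-receptor, had a UMI in 47 of the 78 Cd8a-side cells, in 3 of the 310 Cd4-side cells and in 28 of the others. Trac was detected in 80.3% of the Cd4 side and 56.4% of the Cd8a side, and Trdc in 0 of either. All 17 cells with a Trdc UMI were among the 430 with neither co-receptor gene. Icos and Tnfrsf18 were both found in 377 T cells, Tnfrsf18 alone in 232, Icos alone in 82 and neither in 127.

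The share of cells with the other subset genes differed between the sides in each pool that could be compared. In the 4 pools with at least 10 cells on both sides Nkg7 was detected in 78.8% ± 7.91 (SD) of Cd8a-side and 29.9% ± 28.1 of Cd4-side cells, and the Cd8a side was higher in 4 of 4 pools. In pool 8, however, Nkg7 was found in 71.6% of the Cd4 side as well, against 21.5, 16.7 and 10.0% in pools 6, 14 and 18. Tnfrsf18 was detected in 50.8% ± 24.7 of the Cd8a side and 86.3% ± 4.35 of the Cd4 side and Icos in 49.3% ± 14.8 and 73.5% ± 14.2, with the Cd8a side lower in 4 of 4 pools for both. An exact permutation test over 4 pools cannot go below p = 0.125, the value each of the 3 differences gave. After thinning to 1000 UMIs no pool kept 10 cells on both sides, so these differences have no value at equal depth, and the Cd4 side was deeper (median 5425.5 against 4094 UMIs).

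At equal depth Icos, Tnfrsf18 and Nkg7 showed no detectable tie. With all UMIs Tnfrsf18 was detected in 80.5% ± 14.7 of Icos-positive and 61.6% ± 17.5 of Icos-negative T cells, higher in 5 of 5 pools (difference 18.9 points ± 10.1, exact permutation p = 0.0625, adjusted p = 0.188), a comparison in which cells differ in depth. With 1000 UMIs per cell, Tnfrsf18 was detected in 34.7% ± 6.51 of Icos-positive and 32.4% ± 10.6 of Icos-negative T cells (difference 2.30 points, exact permutation p = 0.75, 5 pools). Nkg7 was detected in 22.2% of Icos-positive and 19.9% of Icos-negative cells (difference 2.37 points, exact permutation p = 0.75, 5 pools). It was detected in 20.8% of Tnfrsf18-positive and 23.2% of Tnfrsf18-negative cells (difference -2.36 points, exact permutation p = 0.625, 4 pools). The smallest p possible is 0.0625 with 5 pools and 0.125 with 4. All 3 adjusted p were 0.75, and the SDs of the differences (11.8, 12.6 and 12.5 points) were larger than the differences.

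Against the other leukocytes of the same pools, T cells had higher levels of T-cell signalling, costimulatory, cytotoxic and cytokine receptor genes and of several cell cycle genes. They had lower levels of the macrophage, granulocyte and B-cell genes that were tested. Counts were summed per pool and class over the 7 pools with at least 10 T cells and compared by edgeR (quasi-likelihood fit, pool as block, Benjamini-Hochberg adjusted p of at most 0.05). Of 10697 genes tested 1776 were higher in T cells (16.6%) and 2793 lower (26.1%). These 2 percentages are the background for the counts that follow. The 6 genes of the rule and Ptprc were not tested. Since the cells were selected by T-cell genes, other genes of the T-cell receptor complex are not independent of that choice. Nor are macrophage genes, since T cells were required to lack Csf1r. Against reference cells without Csf1r 3660 of 9631 genes tested were called. Without the collagen-high T cells 5642 genes were called in place of 4569, in 6 pools since pool 7 then had under 10 T cells (4891 without pool 7 alone). Without the cells with NK receptor UMIs, an alternative chosen after the data were seen, 5013 were called in the same 6 pools. The median log2 difference of all genes was -0.13, and -0.23 with DESeq2 size factors. Log2 differences are T cells minus reference, with SE. Here and below the SE of an edgeR fit is the absolute log2 difference divided by the square root of the quasi-likelihood F statistic.

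Of the 16 T-cell receptor signalling genes tested 14 were higher and 0 lower, with a median log2 difference of 5.45. Lck, the kinase that starts receptor signalling, was at 135 CPM ± 54.1 (SD, n = 7 pools) in T cells and 0.638 ± 0.332 in the reference, a log2 difference of 7.55 ± 0.33 (adjusted p = 1.46e-11). Zap70, the kinase recruited by the phosphorylated chains, had 7.43 ± 0.32. Themis, needed for T-cell development, was at 39.0 to 106 CPM in T cells of the 7 pools and at most 0.138 CPM in the reference. Its difference of 9.55 ± 0.40 on the log2 scale was the largest increase among genes that moved the same way in all pools. Trac was at 355, 259, 258, 288, 156, 301 and 183 CPM in pools 5, 6, 7, 8, 12, 14 and 18, and between 0.0847 and 1.13 CPM in the reference, so the classes did not overlap. Others of this rank were Cd2 (8.57 ± 0.27), an adhesion receptor, Cd6 (8.09 ± 0.33), a scavenger receptor family member of T cells, the adaptors Skap1 (8.02 ± 0.34) and Sh2d2a (7.96 ± 0.39), and Gimap3 (8.28 ± 0.40), a GTPase of lymphocyte survival.

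T-lineage transcription factors were higher for 10 of 15 genes tested and lower for 2 (median 2.88). Bcl11b, which maintains T-cell identity, had a log2 difference of 6.52 ± 0.29, Gata3, a factor of helper cells, 5.30 ± 0.33, and Tcf7, of naive and memory cells, 2.88 ± 0.39. Zbtb7b, which directs the CD4 lineage, was lower, at 6.04 CPM ± 5.35 against 16.8 ± 2.08 (-0.95 ± 0.32, adjusted p = 0.022 by edgeR). Of 7 genes of naive and circulating cells 5 were higher, among them Ccr7, a lymph node homing receptor, with 6.33 ± 0.26, and Il7r, a survival cytokine receptor, with 1.14 ± 0.28. Of 10 memory and residency genes 3 were higher and 3 lower. Cxcr6, a chemokine receptor, was higher (6.42 ± 0.49) and Cd44, an adhesion receptor also used by myeloid cells, was lower (-1.24 ± 0.23).

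Costimulatory and checkpoint genes were higher for 7 of 9 tested (median 5.31), with Tnfrsf1b, a TNF receptor, the exception that was lower. Tnfrsf4, which encodes OX40, was at 395, 204, 348, 357, 78.0, 391 and 315 CPM in T cells of pools 5, 6, 7, 8, 12, 14 and 18 and at most 1.13 CPM in the reference (8.94 ± 0.32, adjusted p = 1.32e-12 by edgeR). Tnfrsf18 was at 395 CPM ± 55.6 and 3.28 ± 2.25 (6.99 ± 0.39). Icos was at 182, 241, 202, 108, 328 and 438 CPM in pools 5, 6, 7, 8, 14 and 18 and at 0 in pool 12, which had only 12 T cells, and between 0.741 and 4.37 CPM in the reference (6.83 ± 0.46). Tnfrsf9, which encodes 4-1BB, had 5.70 ± 0.28. Of 7 genes of the regulatory T-cell list 4 were higher, Ikzf2, Ikzf4, Il2ra and Tnfrsf4, and 3 lower, Il10, Capg and Nrp1, which myeloid cells also express. Foxp3 did not pass the filter on low counts.

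Cytotoxic genes were higher for 8 of 10 tested (median 6.24), and 8 of 10 were also without the cells with NK receptor UMIs. Gzmb was detected in 83.3% of those 30 cells and 18.7% of the other T cells, and Prf1, perforin, in 53.3 and 4.95%. Gzmb, granzyme B, was at 293 CPM ± 273 (SD, n = 7 pools) and 7.82 ± 10.3 (5.70 ± 0.61, adjusted p = 9.12e-07 by edgeR). Ccl5, a chemokine of cytotoxic cells, had 4.17 ± 0.45, Nkg7 5.18 ± 0.41, and the NK-type lectin receptors Klrd1 and Klrc2 7.83 ± 0.33 and 8.06 ± 0.59. The SD of Gzmb was nearly its mean, which shows how far the pools lay apart. Ccl3 and Ccl4, chemokines that macrophages also make, were lower. The NK-cell list had 3 genes tested, Tyrobp, Fcer1g and Klra8, and all 3 were lower, the first 2 being signalling adaptors of myeloid cells as well.

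Cytokine receptor genes were higher for 13 of 19 and lower for 5 (median 1.31). Il2rb, the beta chain of the interleukin-2 receptor, was at 338 CPM ± 112 and 2.65 ± 1.95 (7.08 ± 0.34), and Il2ra, its alpha chain, at 127 CPM ± 85.5 and 2.18 ± 2.49 (6.28 ± 0.44). Il18r1, the interleukin-18 receptor, had 4.77 ± 0.27. It was the 1 gene of 6 in the type 17 and gamma-delta list that was higher, while Il1r1 and Tmem176b were lower. In the type 2 list Gata3 was the 1 gene of 6 that was higher, and Hpgds and Arg1 were lower.

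Of 10 genes for products that act on bone cells 4 were higher in T cells and 4 lower (median 0.47). Tnfsf11, which encodes RANKL, was at 40.5, 40.2, 89.8, 32.7, 63.9 and 32.0 CPM in T cells of pools 5, 6, 7, 8, 14 and 18, and at 0 in pool 12. The reference lay between 1.11 and 3.28 CPM, and the log2 difference was 4.61 ± 0.34 (adjusted p = 6.17e-09 by edgeR). T cells were higher in 6 of 7 pools. In the stromal cells of the 5 pools with at least 20 T cells the mean of Tnfsf11 was 3.80 CPM ± 1.00, against 41.9 ± 12.9 in T cells of those pools. Ifng, interferon gamma, was at 5.07 to 101 CPM in T cells and at 0 in the reference of all 7 pools, at least 213-fold higher with a floor of 3 counts over the reference of the 7 pools. This rests on 59 UMIs in T cells, and the highest levels (101 and 39.0 CPM) were in pools 7 and 12, with 11 and 12 T cells. Over all pools 21 of 310 T cells with a Cd4 UMI had an Ifng UMI, 7 of 78 with a Cd8a UMI and 15 of 430 with neither. Ltb, lymphotoxin beta, was at 217 CPM ± 50.5 and 21.5 ± 16.8 (3.81 ± 0.38), and Sema4d, a semaphorin that restrains osteoblasts, had 1.56 ± 0.27. Tnf, which promotes osteoclast formation, was lower, at 7.88 CPM ± 5.03 against 304 ± 117 (-5.13 ± 0.29), as were Il10, Osm and Il6. Tgfb1 did not pass the test (0.03 ± 0.19).

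The dexamethasone in the medium acts through the glucocorticoid receptor, and 2 of 12 glucocorticoid response genes were higher in T cells and 4 lower (median -0.33). Over all genes tested 16.6% were higher and 26.1% lower, so these counts lie near the background. Nr3c1, the receptor itself, was at 138 CPM ± 50.2 and 67.5 ± 9.74 (0.88 ± 0.21, adjusted p = 0.00305 by edgeR). Sgk1, an induced kinase, was lower (-3.12 ± 0.19), and Tsc22d3 (GILZ) and Fkbp5 were not called, at -0.27 ± 0.17 and -0.17 ± 0.22. Cell cycle genes were higher for 12 of 17 and lower for 0 (median 1.27). Top2a, a topoisomerase of dividing cells, had 1.37 ± 0.35 and was higher in 5 of 7 pools, and Mki67 was not called (0.63 ± 0.40). A Top2a UMI was found in 30.4% of T cells, 13.1% of the reference and 13.4% of stromal cells, and a Mki67 UMI in 22.5, 22.7 and 8.24%. At 1000 UMIs per cell the shares were 12.5, 3.93 and 2.40% for Top2a and 8.65, 5.80 and 1.49% for Mki67. Over all cells the Mki67 share was thus close to that of the reference with all UMIs and above it at equal depth, without a test. Single pools were not compared, so these shares do not show whether each pool went this way. Of 8 genes for ligands of T cells in the culture 7 were lower and 1, Cd80, was higher. Icosl, the ligand of ICOS, was at 2.74 CPM ± 4.02 in T cells and 16.7 ± 6.96 in the reference (-2.61 ± 0.44).

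Markers of other lineages that could be tested were lower in T cells with few exceptions. Of 10 macrophage, 10 granulocyte and 10 B-cell genes listed, 9, 9 and 5 were tested. All of these were lower, with medians of -5.39, -6.14 and -4.42. Genes scarce in T cells could pass the filter on low counts through the reference alone, so their direction was partly set by the filter. The rule asked for no Csf1r UMI, which 64.2% of the reference had, so lower macrophage genes are not independent of that choice. C1qa, a complement component of macrophages, was at 14.3 CPM ± 13.1 and 1012 ± 425. Of 10 stromal genes 7 were lower and 3 not called, Col1a1 among the latter (-0.99 ± 0.42, adjusted p = 0.0691 by edgeR). Kit among 5 basophil and mast genes and Pecam1, the only endothelial gene tested, were higher. Among the 5 basophil and mast genes 2 were lower, and of 2 dendritic genes 1 was. Of the genes lower in all pools, those with the largest differences had no UMI in T cells of the 7 pools, except Clec4n, given last. With a floor of 3 counts over those T cells, Ptpro, a receptor phosphatase, was at least 47.0-fold lower, Lilra6 at least 20.2-fold, Amz1 at least 17.9-fold and Adap2 at least 15.9-fold. The same bound was 12.3-fold for both Spic, a factor of red pulp macrophages, and March1, a ubiquitin ligase for class II molecules. It was 9.43-fold for Mybpc3, 9.25-fold for Nlrc4, an inflammasome sensor, and 8.63-fold for Zmynd15. Clec4n, which encodes dectin-2, had 1 UMI in T cells of the 7 pools and was at 46.4 CPM ± 24.7 in the reference.

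**Figure D3:**
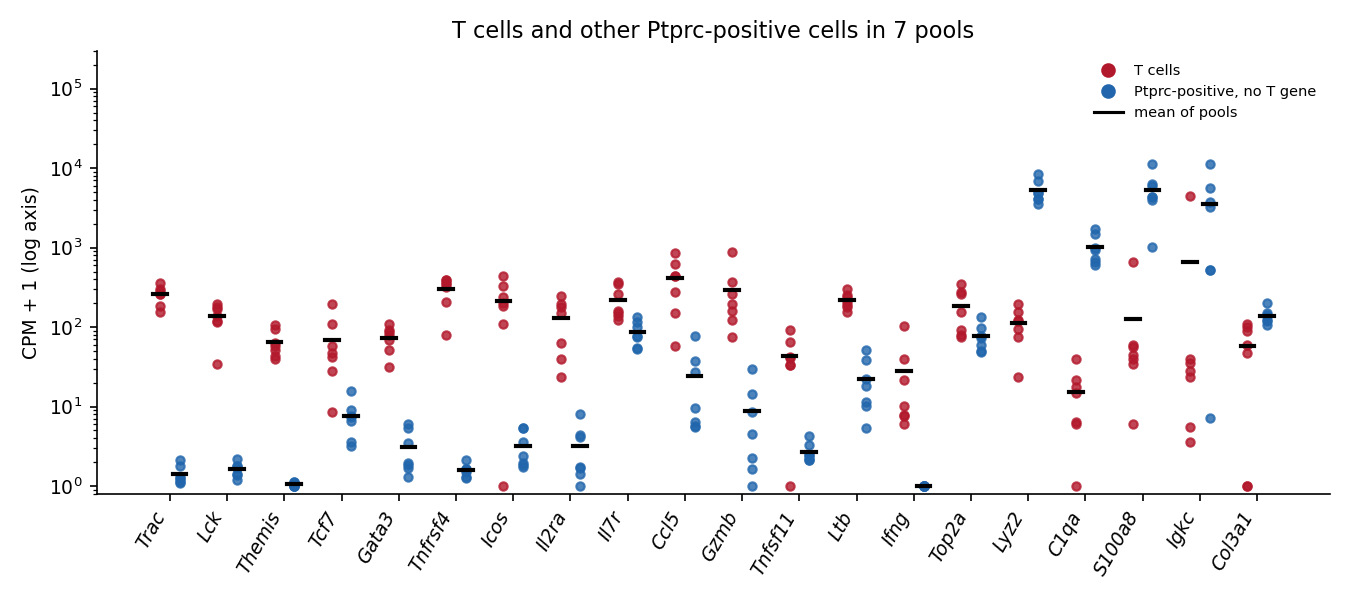
Level of 20 genes in CPM + 1 (log y axis) in T cells (red) and in Ptprc-positive cells without T-cell genes (blue), 1 point per pool for 7 pools and a bar at their mean. Trac, Lck, Themis and Tnfrsf4 of T cells lie above every reference pool, Tnfsf11 and Icos do so in 6 of 7 pools, and S100a8, C1qa and Lyz2 lie below.

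The Cd8a side differed from the Cd4 side in few genes. Both sides had at least 10 cells in 4 pools (6, 8, 14 and 18), with 69 and 274 cells. Of 1902 genes tested with edgeR 9 were higher on the Cd8a side (0.473%) and 9 lower (0.473%), and log2 differences are Cd8a side minus Cd4 side. Leaving out pool 18, which had 10 cells on either side, gave 54 calls, pool 8 gave 27, pool 6 gave 11 and pool 14 gave 6. Without the 53 collagen-high T cells pool 18 had too few cells, and 101 genes were called in the other 3 pools. Without the cells with NK receptor UMIs 20 were called.

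Cd8b1 and 2 cytotoxic genes were among the 9 genes higher on the Cd8a side. Cd8b1 was at 242, 136, 280 and 320 CPM in pools 6, 8, 14 and 18 and at 0, 0, 4.85 and 0 CPM on the Cd4 side (6.88 ± 0.54, adjusted p = 5.22e-05 by edgeR). Ccl5 was at 190, 1835, 2983 and 933 CPM against 5.79, 122, 12.9 and 20.8 (5.34 ± 0.58, adjusted p = 0.00215 by edgeR). Gzmb was at 987, 704, 518 and 1866 CPM against 172, 200, 43.7 and 0 (3.04 ± 0.52, adjusted p = 0.0325 by edgeR). The named genes were chosen for moving the same way in every pool. Ccl5 and Gzmb were 2 of 5 cytotoxic genes tested (Cd8b1 is not on that list), with a median of 2.65 over the list against -0.02 over all genes. Nkg7 and Klrd1 were not called (2.05 ± 0.62 and 2.29 ± 0.60). The other genes higher on the Cd8a side were Vps37b, of the sorting machinery to endosomes (2.58 ± 0.32), Gramd3 (2.56 ± 0.31), Dusp2, a phosphatase of MAP kinases (2.53 ± 0.42), F2r, the thrombin receptor (2.16 ± 0.33), Bcl2l11, which encodes the death regulator BIM (2.11 ± 0.38), and Prdx6, a peroxiredoxin (1.45 ± 0.23).

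Penk, which encodes the opioid peptide precursor proenkephalin, was lower on the Cd8a side. It was at 911, 214, 584 and 417 CPM on the Cd4 side of pools 6, 8, 14 and 18 and at 0 CPM on the Cd8a side of all 4 (adjusted p = 0.00215 by edgeR). With a floor of 3 counts over the Cd8a side it was at least 71.9-fold lower there. Over all pools 140 of 310 Cd4-side T cells (45.2%) had a Penk UMI, 1 of 78 Cd8a-side cells (1.28%) and 83 of 430 with neither gene (19.3%), with up to 117 UMIs in a cell. In the 5 pools with at least 20 T cells Penk was at 1160, 674, 136, 348 and 224 CPM in T cells (pools 5, 6, 8, 14 and 18), against 2.35 CPM ± 1.56 in the reference and 4.55 ± 1.06 in stromal cells. T cells were thus above both other classes in each of these pools. Penk lies on chr4:4133531-4138819, minus strand (GRCm38).

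The other genes lower on the Cd8a side came with Tnfrsf4 at 0, 98.9, 104 and 0 CPM against 268, 531, 484 and 417 (-2.91 ± 0.46, adjusted p = 0.023 by edgeR). Tnfsf8, the CD30 ligand, had -2.28 ± 0.43, Ifi27l2a, an interferon-induced gene, -2.95 ± 0.33, and Maf, a factor of helper cells, -2.03 ± 0.37. Sdf4, a calcium-binding protein of the Golgi, had -1.89 ± 0.24, and H1f0, a linker histone, -2.08 ± 0.34. Sdf4 ends at chr4:156013610 and Tnfrsf4 starts at chr4:156013843 on the same strand, and a sharing of reads was not tested. Hif1a, the hypoxia factor, had -1.55 ± 0.29 and Pgk1, an enzyme of glycolysis, -0.93 ± 0.17. Tnfrsf18 and Il2ra were not called (-1.04 ± 0.30 and -2.001 ± 0.48). Of the 12 signalling, 10 cell cycle, 8 cytokine receptor and 6 stromal genes tested 0 passed in either direction by edgeR. Cd40lg, which helper cells use to activate other cells, was detected in 16.1% of Cd4-side and 0 of 78 Cd8a-side cells, and Tnfsf11 in 27.4 and 1.28%, without a test since both fell under the filter on low counts.

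**Figure D4:**
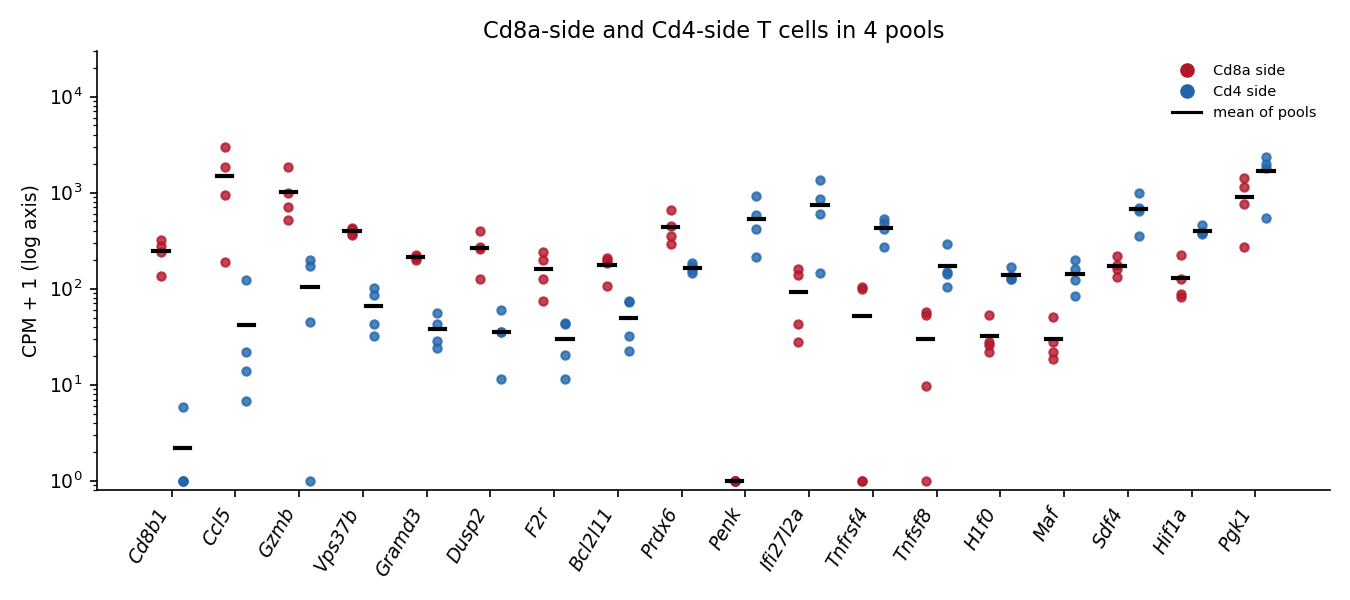
Level of the 18 genes called between Cd8a-side (red) and Cd4-side (blue) T cells in CPM + 1 (log y axis), 1 point per pool for 4 pools and a bar at their mean. Cd8b1 and Ccl5 are higher on the Cd8a side in every pool, and Penk sits at 0 CPM on the Cd8a side of all 4 pools.

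Nkg7-positive T cells carried more granule genes than Nkg7-negative ones. In 5 pools 4271 genes were tested with edgeR, of which 11 were higher in Nkg7-positive cells (0.258%) and 0 lower (0%). At an unadjusted p under 0.05 there were 329 in either direction, and DESeq2 called 20 higher and 2 lower. The pool block mattered here, since without it 0 genes were called (157 at an unadjusted p under 0.05), and with the ribosomal limits described below 0 as well (206 unadjusted), in 4 pools since pool 18 then had too few cells (9 calls without pool 18 alone). Without collagen-high T cells 45 were called. Gzma was at 5.66, 582, 5340.2, 34.7 and 127 CPM in pools 5, 6, 8, 14 and 18 against 0, 37.0, 9.20, 1.92 and 0 (6.07 ± 0.70, adjusted p = 0.00153 by edgeR). Pool 8 stood far above the others, and Nkg7-positive cells were higher in 5 of 5 pools, though pool 5 had 1 Gzma UMI against 0 and the 9 UMIs of pool 18 came from 1 cell. With pool 5, 14 or 18 left out the log2 difference was 6.02 to 6.25. Without pool 8, or without pool 6, Gzma fell under the filter on low counts and has no value. The range therefore does not show the difference without pool 8. Of the 7704 Gzma UMIs in Nkg7-positive cells of pool 8, 1468 came from 1 cell, and without the 17 cells of pool 8 that had NK receptor UMIs 565 UMIs or 531 CPM remained. Without all such cells the Gzma difference was 4.54, that of Gzmb 2.89 and that of Ccl5 3.74, and 12 genes were called, all higher. Ccl5 had 3.78 ± 0.26, Gzmb 3.34 ± 0.45, Ctsw, a cathepsin of cytotoxic cells, 2.68 ± 0.32 and Klrd1 2.55 ± 0.33. These 5 were all the called genes among 7 tested on the cytotoxic list (median 2.68). Serpinb9 and Serpinb6b, inhibitors of granule proteases, had 2.26 ± 0.28 and 1.77 ± 0.15. Vps37b (1.44 ± 0.16), Epsti1, an interferon-induced gene (1.36 ± 0.23), Bcl2l11 (1.32 ± 0.19) and Sh2d2a (1.20 ± 0.16) were the remaining genes. Icos and Tnfrsf18 were not called (0.16 ± 0.20 and -0.37 ± 0.19), nor was Tnfsf11 (-1.44 ± 0.27, adjusted p = 0.0525 by edgeR, lower in 5 of 5 pools).

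A single gene was called between Icos-positive and Icos-negative T cells, and its call was lost in several alternatives. Of 3982 genes tested in 5 pools 0 were higher (0%) and 1 lower (0.0251%) in Icos-positive cells by edgeR, with 495 at an unadjusted p under 0.05, and DESeq2 called 0 higher and 7 lower. The gene was Bglap2, an osteocalcin gene of osteoblasts and a close copy of Bglap, at 27.2, 77.4, 461, 98.2 and 6.23 CPM against 99.7, 635, 2243, 777 and 34.2 (-2.72 ± 0.19, adjusted p = 0.00016 by edgeR). In the same comparison the other stromal markers tested had a median of -1.67 with 0 of 8 called, Col1a1 being at -1.86 ± 0.63 and lower in 4 of 5 pools. Without the collagen-high T cells the difference of Bglap2 was -0.40 and not called (adjusted p = 0.424 by edgeR), while 11 other genes were. Among these Klf2, a factor of resting cells, was at -2.11 ± 0.25. Bglap2 was not called either in the other run (-0.66), under the stricter rule described below (-1.87, 4 pools without pool 18) or without the pool block (-2.51, adjusted p = 0.526 by edgeR). With all T cells Il2ra (0.90 ± 0.29) and Klf2 (-1.04 ± 0.27) were not called.

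Tnfrsf18-positive and Tnfrsf18-negative T cells differed in 248 genes, but not in every setting. No gene was called by edgeR under a stricter rule of at least 3 genes and 5 UMIs (282 at an unadjusted p under 0.05), 1 was called in the other run and 10, all lower, without the pool block, so the values that follow hold for the rule and run used. In 4 pools 3321 genes were tested with edgeR, and 76 were higher (2.29%) and 172 lower (5.18%) in Tnfrsf18-positive cells, with 1 gene of the rule among the 76. The positive cells were deeper, in pool 18 with 134217 UMIs in 21 cells against 84752 in 23. Among cells with at least 2000 UMIs, an alternative chosen after the data were seen, 253 genes were called. Penk was at 785, 152, 424 and 358 CPM against 229, 16.7, 31.0 and 11.8 (2.69 ± 0.35, adjusted p = 0.00747 by edgeR). Tnfrsf4 was at 240, 389, 457 and 507 CPM against 58.3, 121, 116 and 11.8 (2.12 ± 0.31). Penk and Tnfrsf4, with Tnfsf8 (2.00 ± 0.25), Sdf4 (1.49 ± 0.23) and Ifi27l2a (1.46 ± 0.20), were also among the genes lower on the Cd8a side, and the comparisons use overlapping cells. Sdf4 (chr4:155992872-156013610), Tnfrsf4 (chr4:156013843-156016612) and Tnfrsf18 (chr4:156026164-156028895) lie close together on the plus strand. A sharing of reads between them was not tested.

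Among the lists, none of whose genes was called under the stricter rule, 3 of 5 regulatory T-cell genes were higher (Ctla4, a checkpoint receptor, 1.26 ± 0.29, Tnfrsf4 and Capg, 0.85 ± 0.19), as were 2 of 9 costimulatory and checkpoint genes (Ctla4 and Tnfrsf4, list median 0.29) and 5 of 13 cell cycle genes (list median 1.51), with 0 lower in these lists. The median over all genes was 0.02. Without the collagen-high T cells 2 of 5 regulatory (Tnfrsf4 and Il2ra), 1 of 7 costimulatory and checkpoint (Tnfrsf4) and 8 of 10 cell cycle genes were higher. Over all genes in that fit 92 of 2030 were higher. Of the cell cycle genes Birc5, survivin, had 2.35 ± 0.46 and Ube2c, a ubiquitin-conjugating enzyme, 2.19 ± 0.48. Ccl5 (-1.94 ± 0.39) and Klf2 (-1.27 ± 0.22) were lower. Other genes of large difference were Cdca8 (1.94 ± 0.33), of the mitotic spindle, Rhof (1.78 ± 0.39), a small GTPase, Napsa (1.71 ± 0.31), an aspartic protease, and Rangap1 (1.39 ± 0.34), of nuclear transport.

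Stromal genes were among those lower in Tnfrsf18-positive cells. Of 8 stromal and osteoblast genes tested 6 were lower, Col1a1 at 4203 CPM ± 2491 against 11010.5 ± 5679 (-1.36 ± 0.27) and Ibsp, bone sialoprotein, at -1.44 ± 0.33. Single cells held much of these counts. Over the 10 named genes and 4 pools, 1 cell held at least 50% of the UMIs of the Tnfrsf18-negative class in 23 of 40 cases, at least once for each gene. Col8a1, a collagen, had -3.50 ± 0.70, but 103 of its 115 UMIs in the Tnfrsf18-negative cells of pool 8 came from 1 cell, and the difference was -1.94 without pool 8, -4.88 without pool 6 and not called without pool 14 (-3.59, adjusted p = 0.0582 by edgeR). Tagln, of smooth muscle, had -2.93 ± 0.42, with 89 of 90 UMIs of the Tnfrsf18-negative cells of pool 6 in 1 cell, and without that pool it fell under the filter on low counts. Others of large difference were Tmem119, of osteoblasts (-2.61 ± 0.34), Slc13a5, a citrate transporter (-2.30 ± 0.41), Ctgf, a matrix protein (-2.28 ± 0.38), and Amotl2 (-2.22 ± 0.37). Cox4i2 (-2.12 ± 0.39), Timp3, an inhibitor of matrix proteases (-2.03 ± 0.23), Tspan4 (-2.01 ± 0.33) and Fgfr2 (-1.98 ± 0.25) followed. Without the collagen-high T cells 180 genes were called, with 92 higher and 88 lower, so the split moved from 30.6% to 51.1% higher, and 5 of 6 stromal genes tested were lower, Col1a1, Col1a2, Ibsp and Sparc as before and Bglap, which had not been called with all T cells. Leaving out pool 8 gave 70 calls and leaving out pool 14 gave 41, and 106 genes were called (27 higher and 79 lower) without the cells with NK receptor UMIs.

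By median, a larger share of UMIs came from ribosomal protein genes in T cells than in the other cells. Of 818 T cells 334 (40.8%) had over 20% of UMIs from Rpl genes or over 15% from Rps genes. The study removed cells by these limits and the present rule did not. Its methods join them with the word and, and 192 T cells (23.5%) were over both, against 0.526% of the reference, 0.797% of stromal cells and 1.01% of all kept cells. The values that follow are for cells over either limit. The share over either was 1.51% in the reference population, 1.90% in stromal cells and 2.22% in all kept cells. In pools 5, 6, 8, 14 and 18 it was 37.8, 22.2, 63.1, 22.9 and 45.5% of T cells against 1.09, 0.618, 3.11, 0 and 4.52% of the reference. The mean was 38.3% ± 17.1 against 1.87% ± 1.89 (SD, n = 5 pools), and the T cells were higher in 5 of 5 pools (two-sided exact permutation p = 0.0625, the smallest that 5 pools allow). With cells over either limit removed 484 T cells would remain, and with cells over both removed 626. Of the Cd8a side 61.5% were over a limit, of the Cd4 side 32.6%, of T cells with a Mki67 UMI 20.1% and of those without 46.8%. Over both limits were 39.7% of the Cd8a side and 17.4% of the Cd4 side. With cells over either limit removed, just 1 pool had 10 cells on both sides, and removal of only the cells over both was not run by pool. Median T cells had 16.8% Rpl and 14.1% Rps UMIs, against 7.91 and 6.81% in the reference.

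**Figure D5:**
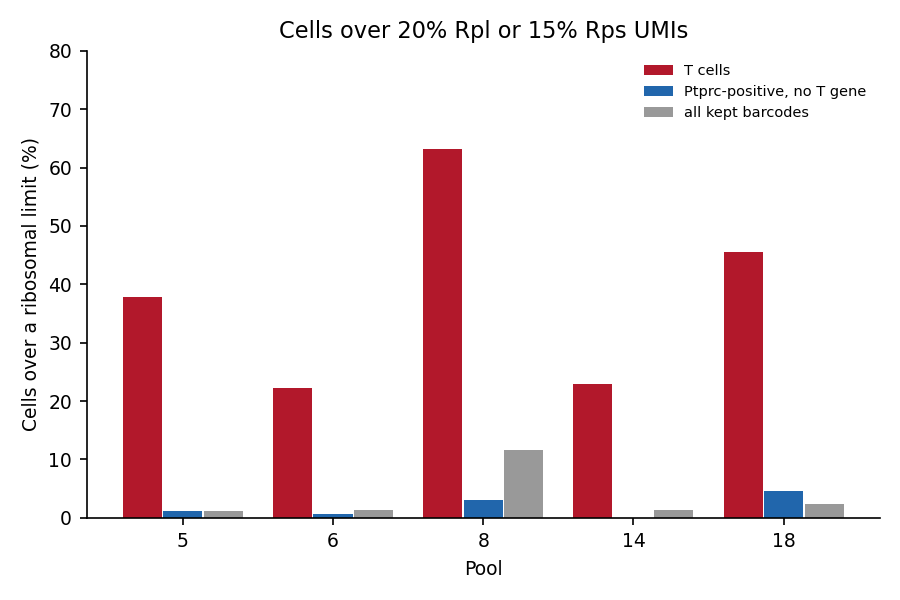
Percentage of cells over 20% Rpl or 15% Rps UMIs (y axis) in pools 5, 6, 8, 14 and 18 (x axis), for T cells (red), Ptprc-positive cells without T-cell genes (blue) and all kept barcodes (grey). T cells are at 22.2 to 63.1%, the reference at 0 to 4.52%.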

How the data were processed

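Cells were liberated from BMSC-OB cultures of Diversity Outbred mice, mixed in 16 pools of 4 or 5 mice and profiled with 10x Genomics 3′ single-cell RNA-seq. The authors aligned reads to mm10 (GRCm38) with Cell Ranger 5.0.0, per the submitters' processing notes, and deposited raw UMI counts per gene and called cell (31053 genes, no normalization), before their own filters and doublet removal. That removal needs reads and was not done here, so droplets with 2 cells can remain. Run HGYVNCCX2 was used. The members and gene lists were chosen with earlier results of these data known.

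From the counts, UMIs were summed per pool and class (at least 10 cells in both classes) and tested with edgeR 4.0.16 in R 4.3.3 (filterByExpr, TMM, quasi-likelihood test, pool as a block), with Benjamini-Hochberg adjustment over all tested genes at 0.05. Pools are separate groups of mice, and 2 classes of a pool come from the same group of 4 or 5 mice, so the block follows from the design. Cells were not assigned to mice, so the block does not remove differences between the animals of a pool. A class can come mostly from 1 mouse. Deviations of same-pool classes correlated at 0.113 to 0.334 on average over the 5 comparisons, and those of other pools at -0.110 to -0.0182. Genes were named when they were among the 10 of largest log2 difference in each direction, passed the threshold and moved the same way in every pool, leaving out mitochondrial, ribosomal and Gm or Rik models. The members of 25 gene lists were counted, and other list genes served as examples. CPM are counts scaled to 1e+06 UMIs of a class in a pool. Shares were thinned to 1000 UMIs per cell in a single random draw, and stromal cells had at least 20 UMIs of Col1a2 and Col3a1 and no Ptprc or Tyrobp UMI. Pool shares were compared by exact permutation of signs and correlations with 100000 permutations. Alternatives were DESeq2 1.42.0 and its size factors, no filter, no block, each pool left out, the other run, a stricter rule (3 genes, 5 UMIs), no Csf1r condition, ribosomal limits (cells over either removed), collagen-high T cells left out, at least 20 cells per class, reference cells without Csf1r and other thinning, and, chosen after the data were seen, cells with at least 2000 UMIs and T cells without Ncr1 or Klrb1c UMIs. A pool left with too few cells in an alternative also dropped out of it. The edgeR script was tested on simulated data. Coordinates and sequences came from GENCODE M21 and GRCm38. Some genes on the lists are counted but not reported here by name.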

Additional observations from a re-analysis of the deposited data

Results flagged for a closer look

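Within groups of 4 or 5 pools, 10 values had a gap to their nearest neighbour that was above Dixon's 95% critical value, which chance gives in about 1 in 20 groups tested. The groups tested included 69 named gene comparisons and 25 gene lists, so chance alone would flag several. Pool 8 T cells stood apart from the other pools in the summed level of the cytotoxic list (6657 CPM, against a median of 1054 in the others), the memory and residency list (3838 against 1793 CPM) and the NK list (680 against 77.5 CPM). In pool 8 Gzma was at 3882 CPM in T cells, and 17 of the 30 T cells with Ncr1 or Klrb1c came from it. Pool 8 also had the highest share of all kept barcodes over a ribosomal limit, 11.7% against a median of 1.35%. Pool 6 T cells stood apart in B-cell markers (4777 against 27.6 CPM) and dendritic markers (31.3 against 3.28 CPM). Pool 14 T cells stood apart in granulocyte markers (1679 against 124 CPM), in erythroid markers (1.502 against 0 CPM) and in the thinned share of cells with Il7r, the interleukin-7 receptor (38.4% against 20%). In the comparison of Tnfrsf18-positive with Tnfrsf18-negative T cells the log2 ratio of Tnfrsf4 (CPM + 1) was 5.31 in pool 18 against a median of 1.97 in the other pools.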

How the results depend on the processing

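The count of genes called between T cells and the reference stayed within 1.5 times of its value in every alternative run (3682 to 4963 with a pool left out). For the Cd8a side against the Cd4 side 18 genes were called, and 34 by DESeq2, 58 without the filter on low counts, 32 without the Csf1r condition and 6 to 54 with a pool left out. In 4 alternatives pool 18 also dropped out, which alone gives 54, and there were 30 in the other run, 52 with the stricter rule, 101 without collagen-high T cells and 71 with at least 2000 UMIs. With at least 20 cells pools 6 and 8 were left, with 5 calls. With ribosomal limits it was not run, since 1 pool was left. For Nkg7 there were 22 by DESeq2, 78 without the filter, 26 in the other run, 18 with the stricter rule, 0 with ribosomal limits (and without pool 18), 45 without collagen-high T cells and 9 to 16 with a pool left out. For Icos there were 7 by DESeq2, 10 without the filter, 0 in the other run (362 at an unadjusted p under 0.05) and 0 with the stricter rule (365 unadjusted, without pool 18), 2 without the Csf1r condition, with ribosomal limits, with at least 20 cells or with 2000 UMIs, 11 without collagen-high T cells and 1 to 3 with a pool left out. For Tnfrsf18 there were 1 in the other run (281 unadjusted), 0 with the stricter rule, 106 without cells with NK receptor UMIs and 41 to 298 with a pool left out. Without the replicate block there were 10 calls for the Cd8a side, 0 for Nkg7, 10 for Tnfrsf18 and 1 for Icos, which was Thbs4 (-2.32) and not Bglap2.

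Mean thinned shares moved with depth. With 2000 UMIs they were 21.3% for Cd4, 8.90% for Cd8a, 32.6% for Nkg7, 36.9% for Icos and 53.6% for Tnfrsf18, and without thinning 39.7, 10.9, 40.7, 60.0 and 73.4%. The Cd8a share was 5.50% ± 4.41 (SD over pools) in the other run and 5.90% ± 8.44 with the stricter rule. It was 6.40% ± 6.64 without the Csf1r condition and 7.57% ± 8.51 without collagen-high T cells. Each was another random draw of UMIs. Differences in co-detection changed sign. That of Tnfrsf18 by Icos was -0.0214 points without pool 14 and -0.461 without pool 18 (range to 6.80), that of Nkg7 by Icos -2.04 without pool 5 (range to 5.92), and that of Nkg7 by Tnfrsf18 1.51 at 2000 UMIs and 1.84 without pool 5 (range from -7.88). For single named genes 962 values kept direction and call and 153 the direction only. A named gene that fell under the filter on low counts in an alternative has no value there and is not counted. In the other run, 37 of the 69 kept both and 20 the direction only, and the rest had no value. Since these genes were chosen for moving alike in every pool, their direction was largely fixed by that choice. The causes were not tested.

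Few cells limit the comparisons among T cells: 4 or 5 pools entered each, 3 pools held 81.7% of the T cells, and the Cd8a side had 69 cells in the 4 pools used. The other run found 810 T cells, 748 of them shared with the run used (91.4 and 92.3% of each).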

Other observations

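Some variable segments of the T-cell receptor were frequent in single pools, a pattern noticed after the values were seen and given without a test. A UMI of any of 176 segments was found in 206 T cells (25.2%). Trav3-3, a segment of the alpha chain, was found in 44 of the 274 T cells of pool 8 (16.1%) and in 5 of the 544 T cells of the other pools (0.919%). Of the beta segments, Trbv13-2 was found in 20 T cells of pool 8 and 1 elsewhere (in pool 5), Trbv1 in 12 of pool 8 and 0 elsewhere, and Trbv12-2 in 22 of pool 8 and 16 elsewhere. Pool 14 held 11 of the 22 T cells with Trbv2, all 9 with Trav7d-3 and 7 of the 8 with Trbv20. Counts of 3′ libraries cover these segments poorly, and whether cells share a receptor was not analysed here.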
